A study of Mus musculus with 4 samples.

Results

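The 37 genes described here carry the breakdown of fatty acids in the liver and its control by the nuclear receptor PPAR alpha. They were given as a list of gene symbols, and each had a row on the arrays whose annotation named that gene alone, so 37 of the 19938 genes measured are members. Messenger RNA was measured on 4 Affymetrix whole-transcript arrays, 1 for each of 4 liver genotypes: GHR/MDR2 double knockout, GHR knockout, MDR2 knockout and wild type. They are called double-null, GHR-null, MDR2-null and wild type below. The mice were 8 weeks old and labelled male, and the RNA on each array was a pool of 3 livers. GHR is the receptor for growth hormone, and MDR2, the product of Abcb4, moves phosphatidylcholine into bile. The labels name the knockouts without saying in which cells the genes were lost. The series title names fibrosis in cholestasis under growth hormone resistance as its subject. Values are linear intensities, and a difference is the log2 of a ratio of intensities. With 1 pool per genotype, a difference between a pair of arrays has no replicate check and no p-value.

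In hepatocytes, long-chain fatty acids are activated to acyl-CoA, carried into mitochondria as carnitine esters and shortened by repeated rounds of dehydrogenation, hydration, oxidation and cleavage. Peroxisomes take up very long-chain and branched acyl-CoA and shorten them by a parallel set of enzymes, while acyl-CoA thioesterases split acyl-CoA back into free acid and coenzyme A. PPAR alpha binds fatty acids, pairs with the retinoid X receptor on DNA and raises transcription of many of these genes, above all in fasting. The members fall by role into 3 regulators, 14 mitochondrial genes, 10 peroxisomal genes, 5 acyl-CoA thioesterases and 5 others.

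The labels were checked before the members were compared. Ghr had an intensity of 935 in double-null and 1395 in GHR-null livers, against 4485 in MDR2-null and 4944 in wild-type livers. Abcb4 was 689 in double-null and 663 in MDR2-null livers, against 1346 in GHR-null and 1120 in wild-type livers. Where in these genes the probes lie is not stated in the labels or the table. Xist, the RNA that coats the inactive X chromosome of female cells, was 1400 in the GHR-null pool, against 17, 18 and 16 in the double-null, MDR2-null and wild-type pools. The Y-linked gene Eif2s3y was 680 in the GHR-null pool, against 951, 840 and 899 in those pools, and Kdm5d and Uty were also present in every pool. The Xist value of the GHR-null pool thus goes against its label as male. GHR loss is therefore read also from double-null against MDR2-null livers, and MDR2 loss from MDR2-null against wild-type livers, which leave that pool out. The order of pools, the non-additivity and the limma fit all need it and have no value without it. Of the 15 female-biased liver genes measured, 13 had an intensity of at least 100 in GHR-null or wild-type livers. All 13 were at least 1.5-fold higher in GHR-null livers, beside 4.22% of all genes at that intensity. Cyp2b9, Cyp2b13, Hao2, Sult1e1, Prom1, A1bg, Slc22a26 and Acot3 reached it through the GHR-null pool alone. Their place in this count is therefore no support. Cyp2b10, Fmo2, Cyp17a1, Abcd2 and Cyp39a1 reached it in wild type too, and were 1.88-fold to 19.4-fold higher. Summed over the 15, intensity was 22880 for GHR-null, 7435 for double-null, 1520 for MDR2-null and 1858 for wild-type livers. Male-biased genes, 13 measured, summed to 17322 in the double-null, 19868 in the GHR-null, 52855 in the MDR2-null and 61784 in the wild-type pool. Abcd2 and Acot3 are both members and female-biased list genes. The part of these differences in the members' values was not tested.

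Promoter sequences are shown for the thioesterase cluster, in which Acot2 had another order of the pools than Acot4, and for the carnitine carrier Slc25a20. RefSeq windows on GRCm38.p6, 250 bases before to 50 after an annotated start, were matched to 32 of 37 members by symbol, giving 36 windows. Acot2, Acot1, Acot4 and Acot3 follow each other in that order on chromosome 12, with windows at chr12:83987611-83987910, chr12:84009252-84009551, chr12:84038129-84038428 and chr12:84051894-84052193, all on the plus strand. The Slc25a20 window is chr9:108661886-108662185, also on the plus strand. PPAR alpha and the retinoid X receptor bind a hexamer, AGGTCA, repeated directly after 1 base, and both strands were searched for that repeat with up to 2 mismatches in its 12 fixed letters. Capitals mark the repeat in Acot4 and Slc25a20, where it was found, and the exact hexamer, on the other strand, in Acot3; Acot2 and Acot1 hold neither. Each window is printed on the gene's strand.
Acot2: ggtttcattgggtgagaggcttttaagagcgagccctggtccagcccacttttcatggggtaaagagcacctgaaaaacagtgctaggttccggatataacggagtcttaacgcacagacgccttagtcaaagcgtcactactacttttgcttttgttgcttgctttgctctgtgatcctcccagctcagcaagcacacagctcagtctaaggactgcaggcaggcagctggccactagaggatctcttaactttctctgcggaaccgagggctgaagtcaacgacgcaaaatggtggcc
Acot1: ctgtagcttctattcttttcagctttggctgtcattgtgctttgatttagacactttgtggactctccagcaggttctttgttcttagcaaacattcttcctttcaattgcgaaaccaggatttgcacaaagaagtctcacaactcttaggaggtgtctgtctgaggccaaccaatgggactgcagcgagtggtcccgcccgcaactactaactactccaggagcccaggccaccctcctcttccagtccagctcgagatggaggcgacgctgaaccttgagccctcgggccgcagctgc
Acot4: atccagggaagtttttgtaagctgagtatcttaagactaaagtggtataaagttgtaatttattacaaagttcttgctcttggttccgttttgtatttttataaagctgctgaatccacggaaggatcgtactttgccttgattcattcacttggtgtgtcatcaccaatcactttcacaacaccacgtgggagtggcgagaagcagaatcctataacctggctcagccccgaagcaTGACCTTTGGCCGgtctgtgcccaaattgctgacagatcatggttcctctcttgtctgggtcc
Acot3: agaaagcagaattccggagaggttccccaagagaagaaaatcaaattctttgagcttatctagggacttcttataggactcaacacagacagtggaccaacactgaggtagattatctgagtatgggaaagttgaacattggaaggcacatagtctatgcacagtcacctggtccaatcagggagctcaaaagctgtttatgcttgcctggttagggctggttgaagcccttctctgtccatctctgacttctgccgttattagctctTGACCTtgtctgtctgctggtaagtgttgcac
Slc25a20: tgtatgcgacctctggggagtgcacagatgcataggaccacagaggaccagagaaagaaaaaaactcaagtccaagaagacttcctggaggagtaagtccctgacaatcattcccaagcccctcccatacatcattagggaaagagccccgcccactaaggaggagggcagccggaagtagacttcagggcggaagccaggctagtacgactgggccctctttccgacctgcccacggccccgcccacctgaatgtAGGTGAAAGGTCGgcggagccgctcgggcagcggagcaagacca

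In Acot4 the matched stretch was TGACCTTTGGCCG, on the minus strand, at bases -13 to -1 from the start. In Slc25a20 it was AGGTGAAAGGTCG at bases 7 to 19, and in the third member with a match, Creb3l3 (chr10:81092542-81092841, minus strand), it was AGGGGAGAGGTCA at bases -209 to -197. These 3 of 36 member windows make 8.33%, and 3.86% of all 32851 windows hold the repeat under the same rule. With at most 1 mismatch no member window held it, against 0.554% of all windows. The exact hexamer alone, which the repeat can contain, was in 7 member windows (19.4%) and in 16.3% of all windows. Any pair of promoters among Acot1, Acot2, Acot3, Acot4 and Acot8 had between 23.3% and 30.0% of bases identical at the same distance from the start. The windows were not aligned, so a shift of bases would hide a likeness. These shares therefore do not show whether the promoters are related. A match of letters is a description and does not show binding.

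Across the pools, most members were highest in GHR-null livers. The GHR-null pool held the highest intensity of 33 of 37 members, including 13 of 14 mitochondrial genes, 10 of 10 peroxisomal genes and 5 of 5 thioesterases. The exceptions were Creb3l3, highest in the MDR2-null pool, Cpt1a and Pdk4, highest in the double-null pool, and Fgf21, highest in wild type. An intensity of 100, the median of the rows that name 1 gene, was taken as the level a gene had to reach on at least 1 of the arrays compared, and 35 members reached it on some array. Acot1 and Fgf21 did not. Of those 35 members, 32 were highest in the GHR-null pool, against 38.0% of the 10764 genes that passed. The lowest intensity lay in the double-null pool for 15 members, in the GHR-null pool for 1, in the MDR2-null pool for 14 and in wild type for 7. The share of all genes lowest in each pool was not counted, so these counts are a description alone. The summed intensity of all members was 57724 in the double-null, 78312 in the GHR-null and 54045 in the MDR2-null pool, against 59036 in wild type.

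**Figure D1:**
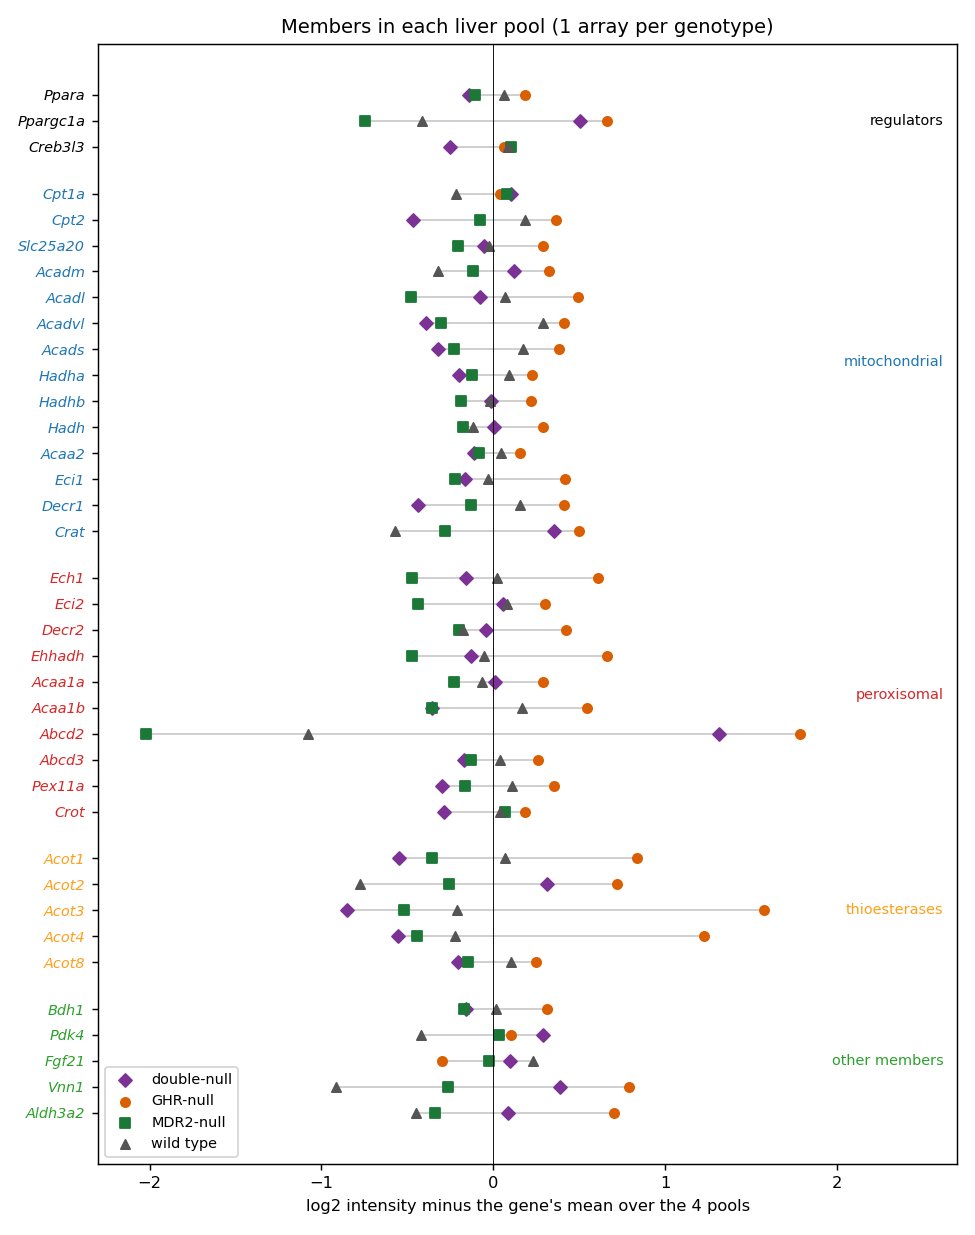
Each row is 1 member and each symbol 1 liver pool (1 array). The x axis gives log2 intensity minus the mean of that gene over the 4 pools, so 0 is the gene's own mean, and members are grouped by role. The GHR-null circle is the rightmost symbol for 33 of 37 members, and Abcd2 spreads most widely.

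Loss of GHR with MDR2 intact was read from GHR-null against wild-type livers. In this comparison 12 of the 35 members that passed the level were at least 1.5-fold higher and 0 were lower by that much, against 4.22% of 10052 genes higher and 2.48% lower. Of all 37 members 35 had a difference above 0. Of the 35 that passed, 34 did, against 66.7% of genes passing. The members' median difference was 0.36 on the log2 scale, and that of genes passing was 0.10. The 12 higher members were Ppargc1a, Acadm, Crat, Ech1, Decr2, Ehhadh, Abcd2, Acot2, Acot3, Acot4, Vnn1 and Aldh3a2. Acot3 passed the level through the GHR-null pool alone, where it was high, so its place in this count is no support. Ech1, at 1.51-fold, and Decr2, at 1.52-fold, lay just past the threshold. Of the 33 members that passed the level and were on neither sex-biased list, 10 were at least 1.5-fold higher.

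With MDR2 also lost, read from double-null against MDR2-null livers, fewer members differed. At least 1.5-fold higher were 4 of the 34 members that passed, namely Ppargc1a, Crat, Abcd2 and Vnn1, and 0 were lower by that much. Over 10524 genes 7.13% were higher and 3.88% lower. Above 0 lay 21 of the 34 members, against 57.8% of genes, and the median over all 37 members was 0.06, beside 0.06 for genes passing. With each array centred on its median, 17 of the 34 were above 0. Acot2, at 1.48-fold higher, was just short of the threshold. These pools share no array with the GHR-null and wild-type pools, so the overlap can be counted. All 4 members higher here were among the 12 higher in GHR-null livers, 33.3% of the 12 and 100% of the 4. For all genes the overlap was 133, which was 31.4% of the 424 genes higher in GHR-null livers and 17.7% of the 750 higher in double-null livers.

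**Figure D2:**
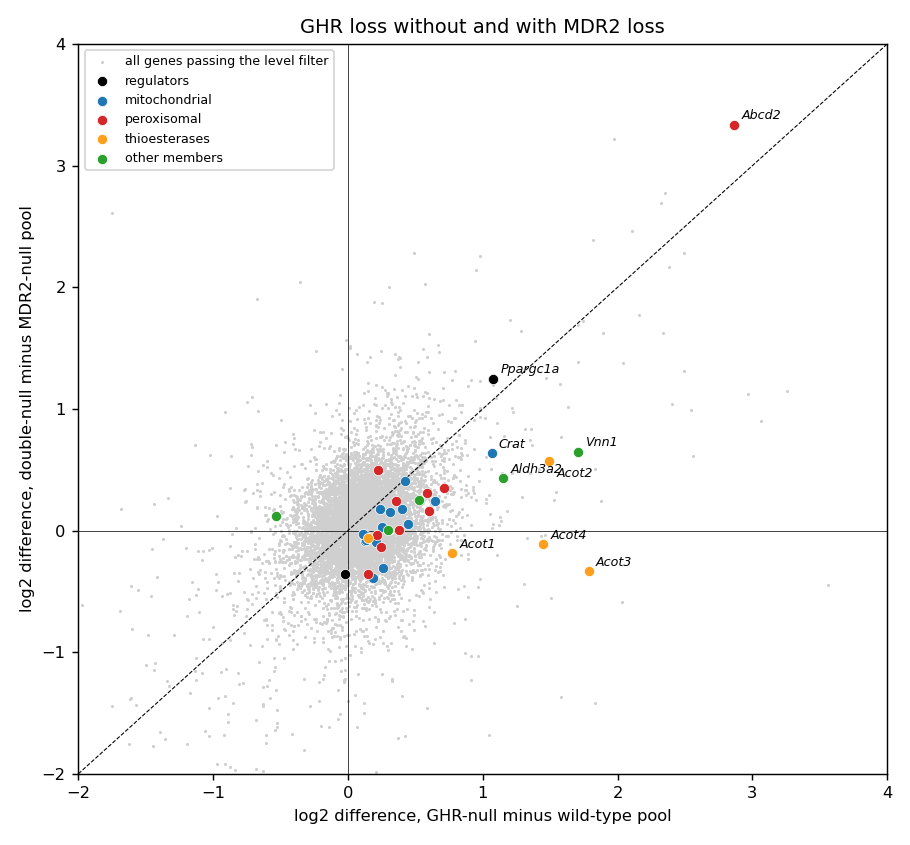
Each coloured point is 1 member. The x axis gives the log2 difference of GHR-null minus wild-type livers, the y axis that of double-null minus MDR2-null livers, grey points are all genes passing the level and the dashed line marks equal differences. The axes are limited, so some grey points lie outside. Abcd2 and Ppargc1a lie above the line, while Acot3, Acot4 and Acot1 lie to the right with y values below 0.

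Among the regulators, the receptor itself stood near its wild-type level. Ppara had intensities of 1117 in the double-null, 1397 in the GHR-null and 1142 in the MDR2-null pool, against 1285 in wild type. Creb3l3, a liver transcription factor that acts together with PPAR alpha in fasting, was 1025 in the double-null, 1274 in the GHR-null and 1310 in the MDR2-null pool, against 1297 in wild type. No pair of pools differed by 1.5-fold for either gene. Ppargc1a, a coactivator that drives mitochondrial oxidative genes, was 542 in double-null and 606 in GHR-null livers, against 228 in MDR2-null and 287 in wild-type livers. It was high in both pools without GHR, by 2.38-fold in double-null over MDR2-null livers and 2.11-fold in GHR-null over wild-type livers. A second row of the arrays for Ppargc1a, with lower signal, gave log2 differences of 1.42 and 0.78 for the same comparisons.

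The mitochondrial genes differed by small amounts. All 14 were above 0 in GHR-null against wild-type livers, between 0.11 and 1.07, with a median of 0.26, and Acadm and Crat passed 1.5-fold. In double-null against MDR2-null livers the median was 0.04 and Crat alone passed. Cpt1a, which makes the acylcarnitines that enter mitochondria and is the main control point of the pathway, was 2624 in the double-null, 2508 in the GHR-null and 2579 in the MDR2-null pool, against 2104 in wild type. Its levels in the 3 knockout pools were close to each other and above wild type, by a log2 difference of at most 0.32. Cpt2, which turns acylcarnitines back into acyl-CoA inside mitochondria, was 851 in the double-null, 1518 in the GHR-null and 1116 in the MDR2-null pool, against 1338 in wild type, so it was lowest in double-null livers. Slc25a20, the carrier between these steps, was 1082 in the double-null, 1371 in the GHR-null and 973 in the MDR2-null pool, against 1106 in wild type. The 3 genes of the carnitine shuttle thus had different orders of pools.

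Crat, which moves acetyl groups between coenzyme A and carnitine, was 726 in double-null and 802 in GHR-null livers, against 468 in MDR2-null and 383 in wild-type livers. It was 2.09-fold higher in GHR-null than in wild-type livers and 1.55-fold higher in double-null than in MDR2-null livers. Of the acyl-CoA dehydrogenases, which take the first step of each round, Acadm for medium chains was 4419 in the double-null, 5092 in the GHR-null and 3745 in the MDR2-null pool, against 3258 in wild type. It stood apart from its relatives, since Acadm was lowest in wild type. Acadvl, for very long chains, was 1023 in double-null and 1089 in MDR2-null livers, against 1786 in GHR-null and 1640 in wild-type livers. Acadvl was low in both pools without MDR2. Acads, for short chains, had the same order, with 1045 in double-null and 1114 in MDR2-null livers, against 1701 in GHR-null and 1473 in wild-type livers. Acadl, for long chains, was 1389 in double-null and 1049 in MDR2-null livers, against 2059 in GHR-null and 1534 in wild-type livers. The remaining mitochondrial members, Hadha, Hadhb, Hadh, Acaa2, Eci1 and Decr1, which complete the round or prepare unsaturated chains for it, lay between 0.11 and 0.45 in GHR-null against wild-type livers.

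All 10 peroxisomal genes were above 0 in GHR-null against wild-type livers, between 0.15 and 2.87, with a median of 0.37. In double-null against MDR2-null livers their median was 0.20 and Abcd2 alone passed 1.5-fold. Abcd2, a transporter that brings very long-chain acyl-CoA into peroxisomes, was 1473 in double-null and 2041 in GHR-null livers, against 146 in MDR2-null and 280 in wild-type livers. It was 10.1-fold higher in double-null than in MDR2-null livers and 7.29-fold higher in GHR-null than in wild-type livers. Both pools without GHR stood above both with GHR, as they also did for other members, among them Ppargc1a, Crat, Acadm and Acot2. The share of all genes with that order was not counted. Its relative Abcd3 was 3032 in the double-null, 4086 in the GHR-null and 3117 in the MDR2-null pool, against 3512 in wild type, with no difference past 1.5-fold.

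Ehhadh, the bifunctional enzyme that does the hydration and oxidation steps in peroxisomes, was 1408 in the double-null, 2429 in the GHR-null and 1108 in the MDR2-null pool, against 1479 in wild type. Ech1, an isomerase for chains with several double bonds, was 976 in the double-null, 1663 in the GHR-null and 786 in the MDR2-null pool, against 1105 in wild type. Decr2, a reductase for unsaturated chains, was 2471 in the double-null, 3416 in the GHR-null and 2215 in the MDR2-null pool, against 2249 in wild type. In each of these 3 genes the GHR-null pool stood above the others, and in double-null against MDR2-null livers their log2 differences were 0.35, 0.31 and 0.16. Acaa1b, a thiolase that makes the last cut, was 1365 in the double-null, 2546 in the GHR-null and 1362 in the MDR2-null pool, against 1962 in wild type. The closely similar Acaa1a may share signal with it, because probe positions are not stated in the labels or the table. Eci2, Acaa1a, Pex11a, which promotes division of peroxisomes, and Crot, which makes carnitine esters of medium chains for export, lay between 0.15 and 0.36 in GHR-null against wild-type livers.

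The 5 thioesterases ran from 0.15 to 1.79 in GHR-null against wild-type livers, with a median of 1.45. In double-null against MDR2-null livers the median was -0.11. Acot4, a peroxisomal enzyme that splits succinyl-CoA and other dicarboxylic acyl-CoA, was 380 in the double-null, 1306 in the GHR-null and 411 in the MDR2-null pool, against 479 in wild type. It was 2.73-fold higher in GHR-null than in wild-type livers, while the other 3 pools lay close together. Acot3, a peroxisomal long-chain enzyme, was 50 in the double-null, 269 in the GHR-null and 63 in the MDR2-null pool, against 78 in wild type. Acot3 reached the level through the GHR-null pool alone, so with wild type set to 100 it was at least 2.69-fold higher in GHR-null livers, and the direction among the other pools is not known. The pool in which Acot3 and Acot4 stood out was the one with the Xist signal.

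Acot2, the mitochondrial enzyme of the cluster, had another order, with 475 in double-null and 628 in GHR-null livers, against 320 in MDR2-null and 223 in wild-type livers. It was 2.82-fold higher in GHR-null than in wild-type livers and 1.48-fold higher in double-null than in MDR2-null livers. Acot1, its cytosolic neighbour of nearly the same protein sequence, was 36 in the double-null, 94 in the GHR-null and 41 in the MDR2-null pool, against 55 in wild type. All 4 values were under the level, and signal shared with Acot2 cannot be separated here. Acot8, a peroxisomal enzyme outside the cluster, was 142 in the double-null, 195 in the GHR-null and 148 in the MDR2-null pool, against 176 in wild type, with no difference past 1.5-fold.

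**Figure D3:**
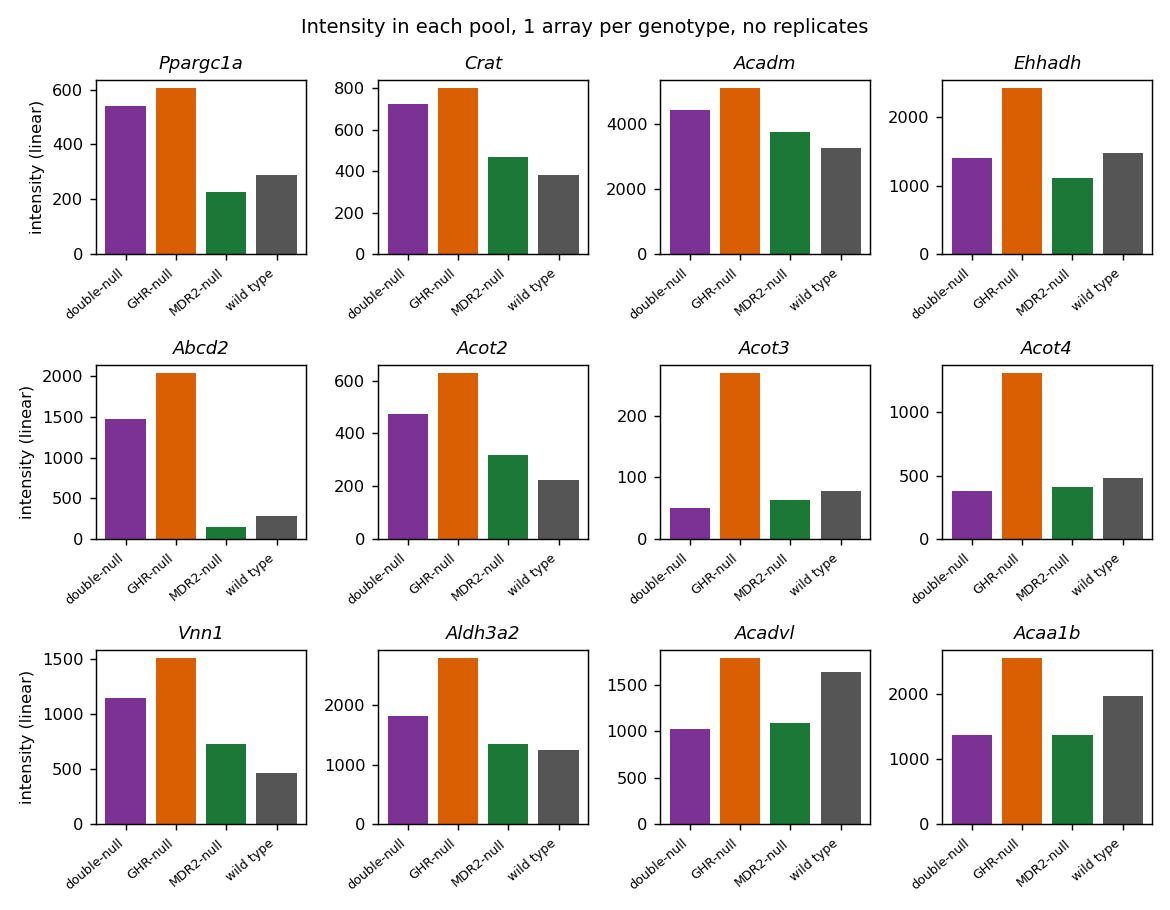
Bars give the linear intensity of 12 members in the 4 liver pools, 1 array per genotype and so without error bars; each panel has its own y axis from 0. Abcd2 and Ppargc1a are high in both pools without GHR, Acot3 and Acot4 in the GHR-null pool, and Acadvl is low in both pools without MDR2.

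Of the other members, Vnn1, a pantetheinase that is a sensitive PPAR alpha target in mouse liver, was 1140 in the double-null, 1504 in the GHR-null and 727 in the MDR2-null pool, against 462 in wild type. It was higher than wild type in all 3 knockout pools, by 2.47-fold, 3.26-fold and 1.57-fold in that order. Aldh3a2, which oxidises fatty aldehydes, was 1813 in the double-null, 2781 in the GHR-null and 1347 in the MDR2-null pool, against 1251 in wild type. Pdk4, a kinase that blocks glucose oxidation when fat is burned, was 317 in the double-null, 279 in the GHR-null and 266 in the MDR2-null pool, against 194 in wild type. Pdk4 passed 1.5-fold in double-null livers, at 1.63-fold over wild type. Bdh1, which makes the ketone body hydroxybutyrate, was 1333 in the double-null, 1852 in the GHR-null and 1327 in the MDR2-null pool, against 1508 in wild type. Fgf21, a fasting hormone made under PPAR alpha, was 50 in the double-null, 38 in the GHR-null and 46 in the MDR2-null pool, against 55 in wild type, all under the level.

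The average effect of each loss over both backgrounds was tested with limma, with GHR and MDR2 status as additive terms over the 4 arrays and 1 residual degree of freedom. Of 35 members tested, Abcd2 was called for GHR loss, and 0 were called lower, against 0.204% of 10764 genes called higher and 0.316% lower. Abcd2 was higher by 3.10 ± 0.17 on the log2 scale (SE), with a limma adjusted p of 0.0062, and higher in 2 of 2 comparisons. Without the level filter its limma adjusted p was 0.52. Ppargc1a came next, at 1.16 with an SE of 0.14 and a limma adjusted p of 0.055, which did not pass 0.05. With limma's trend and robust settings it was 0.039. The SE of Crat was 0.17 for an average of 0.85, and its limma adjusted p was 0.17. At an unadjusted p under 0.05 stood 11 of 35 members, against 13.1% of all genes tested. This fit cannot be made without the GHR-null array, since 3 arrays leave no residual.

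Loss of MDR2 with GHR intact, read from MDR2-null against wild-type livers, went with small differences. Of 34 members that passed the level, Vnn1 was at least 1.5-fold higher, and Abcd2 and Acadvl were lower by that much, at 1.92-fold and 1.51-fold. Over 10258 genes 6.05% were higher and 3.58% lower, so the members' counts were near those of all genes. Below 0 lay 25 of the 34 members, against 54.9% of genes, with a median of -0.19 over all 37 members, against -0.04 over genes passing. By role the median was -0.19 for mitochondrial and -0.34 for peroxisomal genes.

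Loss of MDR2 without GHR, read from double-null against GHR-null livers, gave the larger differences. Of 35 members that passed, 0 were at least 1.5-fold higher and 11 were lower by that much, against 9.91% of 10514 genes higher and 9.89% lower. Below 0 lay 33 of the 35, against 56.4% of genes, and the median over all 37 was -0.46, against -0.06 over genes passing. The 11 were Cpt2, Acadvl, Acads and Decr1 among mitochondrial genes, Ech1, Ehhadh, Acaa1b and Pex11a among peroxisomal genes, and Acot3, Acot4 and Aldh3a2. Acot4 was 3.44-fold lower, Acot3 at least 2.69-fold lower with its double-null value, under the level, set to 100, and the other 9 were between 1.53-fold and 1.87-fold lower. All 10 peroxisomal genes were below 0, between -0.90 and -0.24. This comparison uses the GHR-null pool with the Xist signal. Without that pool, MDR2 loss is seen in MDR2-null against wild-type livers, where 10 of these 11 genes differed by less than 1.5-fold and Acadvl passed.

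**Figure D4:**
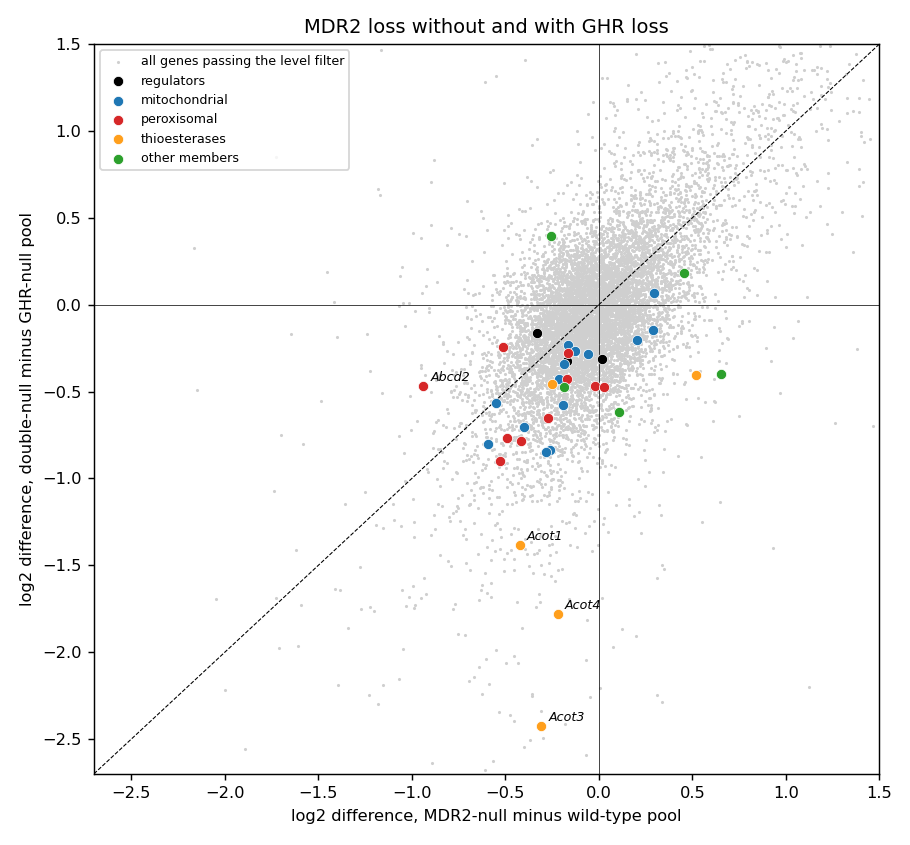
Each coloured point is 1 member. The x axis gives the log2 difference of MDR2-null minus wild-type livers, the y axis that of double-null minus GHR-null livers, grey points are all genes passing the level and the dashed line marks equal differences. The axes are limited, so some grey points lie outside. Most members lie in the lower left part, below the line, and Acot3, Acot4 and Acot1 lie lowest.

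Markers of other liver cell types moved with these comparisons, and not all in the same direction. In pooled tissue fewer hepatocytes and less RNA per hepatocyte cannot be told apart. The 10 cholangiocyte markers measured summed to 3989 in the double-null, 748 in the GHR-null and 1497 in the MDR2-null pool, against 736 in wild type. In double-null against GHR-null livers 9 of 10 were at least 1.5-fold higher, against 9.91% of all genes, with a median of 2.05. The other, Prom1, was 1.77-fold lower and reached the level through the GHR-null pool alone. Krt7, Krt19, Epcam, Tspan8, Cftr, Cldn4 and Wfdc2 reached it through the double-null pool alone, where they were high, so their place in this count is no support. Sox9 and Cd24a reached it in both pools, and were 3.90-fold and 13.7-fold higher in double-null livers. The 10 macrophage markers summed to 9744 in the double-null, 4123 in the GHR-null and 6724 in the MDR2-null pool, against 3063 in wild type. The 9 stellate cell markers summed to 3735, 2768 and 3304, against 2205 in wild type. Lyz2 alone gave 5243 of the double-null macrophage sum, and Reln 1246 of the stellate sum. In double-null against GHR-null livers 7 macrophage markers were at least 1.5-fold higher, and Clec4f was 1.58-fold lower. Of the stellate markers 5 were higher by that much, and Lrat was 1.95-fold lower. The macrophage markers Cx3cr1, Ccr2 and Itgam and the stellate marker Timp1 reached the level through the double-null pool alone. Their place in these counts is therefore no support. The 8 hepatocyte markers summed to 72343 in the double-null, 74056 in the GHR-null and 73461 in the MDR2-null pool, against 77646 in wild type, a sum led by a few abundant genes, and their median was -0.01 in double-null against GHR-null livers. Asgr1, a receptor of the hepatocyte surface, went apart from it, with 1098 in the double-null, 2144 in the GHR-null and 1694 in the MDR2-null pool, against 2252 in wild type, so it was 1.95-fold lower in double-null than in GHR-null livers. The 6 endothelial markers summed to 4152 in the double-null, 5143 in the GHR-null and 4578 in the MDR2-null pool, against 4157 in wild type. All 6 were below 0 in double-null against GHR-null livers, against 56.4% of all genes, with a median of -0.44. Lyve1 and Kdr were at least 1.5-fold lower there. The 4 adipocyte markers stayed under the level in every pool, and the 5 skeletal muscle markers summed to between 284 and 475. Centred on the hepatocyte markers, 33 of 37 members were below 0 in double-null against GHR-null livers, and without Asgr1 34 were. No other part of cell make-up in the members' values was tested.

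For the average effect of MDR2 loss, limma called 0 of 35 members in either direction, against 2.99% of 10764 genes higher and 0.762% lower. At an unadjusted p under 0.05 stood 13 of 35 members, against 23.6% of all genes tested. With trend and robust settings, without the level filter and after cyclic loess the count was also 0. Acadvl came closest, at -0.70 with an SE of 0.14 and a limma adjusted p of 0.067. Acaa1b followed at -0.71 with an SE of 0.16 and a limma adjusted p of 0.077.

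Against wild type, double-null livers had members on both sides. At least 1.5-fold higher were 6 of 34 members that passed, and 3 were lower by that much, against 13.7% of 10487 genes higher and 7.57% lower, so the counts were near those of all genes. The higher members were Abcd2 at 5.26-fold, Vnn1 at 2.47-fold, Acot2 at 2.13-fold, Crat at 1.90-fold, Ppargc1a at 1.89-fold and Pdk4 at 1.63-fold. The lower members were all mitochondrial, Acadvl at 1.60-fold, Cpt2 at 1.57-fold and Decr1 at 1.51-fold. The median over all 37 members was -0.14, beside 0.01 for genes passing. The share of all genes above or below 0 was not counted for this comparison. Of the 37 members, 13 were above 0 and 24 below. Centred on hepatocyte markers, 22 were above 0 and 15 below, but without Asgr1, a choice made after seeing the data, 15 were above 0 and 22 below.

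**Figure D5:**
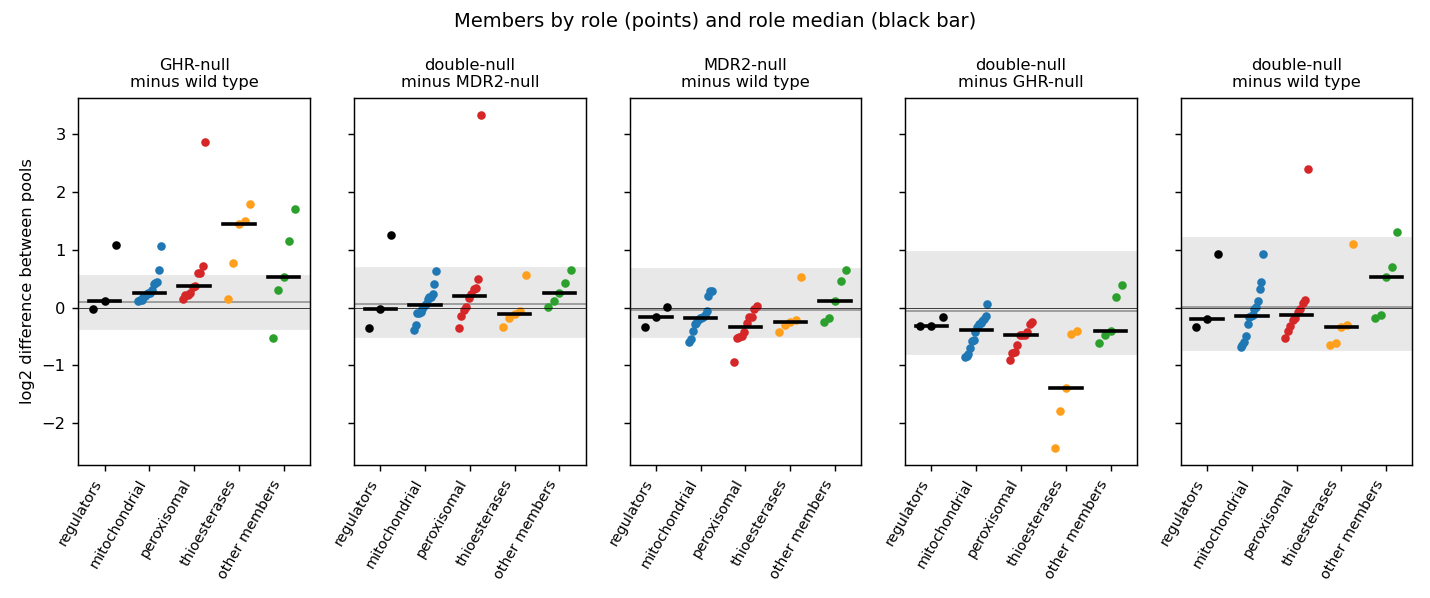
Each point is 1 member, grouped by role in each of the 5 comparisons, with the log2 difference on the y axis and the bar at the median of the role. The grey band runs from the 5th to the 95th percentile of all genes passing the level and the grey line is their median. Thioesterases have the highest median in GHR-null against wild-type livers, 1.45, while their median in double-null against GHR-null livers, -1.38, is the value of Acot1, which was under the level in every pool.

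Whether the losses added up was read from the difference between the log2 difference with GHR loss in MDR2-null and in MDR2-intact livers, which uses all 4 pools. Of 35 members, 5 lay at least 1.5-fold below 0 and 0 that far above, against 6.71% of 10764 genes below and 5.28% above. They were Acot3, Acot4 at -1.56, Vnn1 at -1.05, Acot2 at -0.92 and Aldh3a2 at -0.72. Below 0 lay 33 of 37 members, with a median of -0.29, against -0.03 over genes passing. The share of all genes below 0 was not counted, so the 33 have no count to be set against. The robust SD over all genes, which holds measurement error and real departures alike, was 0.33. Abcd2, at 0.47, and Ppargc1a, at 0.17, lay above 0, so their excess with GHR loss was at least as large without MDR2. For Acot3 3 of the 4 intensities were under the level, and with those set to 100 its value was -1.43. These values have no test.

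The rest of the pathway was read from a list of 76 other genes of PPAR alpha action and fatty acid breakdown, of which 68 were measured. In GHR-null against wild-type livers 8 of the 64 that passed were at least 1.5-fold higher and 5 lower, against 4.22% and 2.48% of all genes. In double-null against MDR2-null livers 8 were higher and 9 lower of 65, against 7.13% and 3.88%. In MDR2-null against wild-type livers 2 were higher and 13 lower of 65, against 6.05% and 3.58%, and in double-null against GHR-null livers 3 were higher and 23 lower of 64, against 9.91% and 9.89%. Limma called Cyp4a10 and Cyp4a31 higher and Cyp4a12a and Scp2 lower with GHR loss. With MDR2 loss it called Acot9 higher and Cyp4a10, Cyp4a31, Acacb, Klb and Retsat lower. The genes with the largest differences were mostly fatty acid omega-hydroxylases of the Cyp4a family, which share much sequence, so signal may be shared among them. Cyp4a14 was 196 in the double-null, 4748 in the GHR-null and 40 in the MDR2-null pool, against 153 in wild type. Cyp4a31 was 466 in double-null and 2165 in GHR-null livers, against 104 in MDR2-null and 416 in wild-type livers. Cyp4a12a, a male-biased gene, was 181 in double-null and 140 in GHR-null livers, against 7139 in MDR2-null and 7891 in wild-type livers. Members of this family thus differed in opposite directions with GHR loss. Cd36, which takes up fatty acids, was 1394 in the double-null, 2232 in the GHR-null and 910 in the MDR2-null pool, against 379 in wild type. Fabp2, a fatty acid binding protein, was 92 in the double-null, 871 in the GHR-null and 530 in the MDR2-null pool, against 1251 in wild type.

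A list of 18 genes, mainly Pex genes that build peroxisomes, was read apart from the enzymes inside them, and 15 were measured. The list also held Pxmp2, Pxmp4 and Abcd4, which are not Pex genes, so its counts do not describe the building of peroxisomes alone. In double-null against GHR-null livers all 15 were below 0, against 56.4% of all genes, with a median of -0.58. At least 1.5-fold lower were 7, against 9.89% of all genes, namely Pex5, Pex6, Pex10, Pex11g, Pex14, Pex16 and Pxmp4. In MDR2-null against wild-type livers 14 of 15 were below 0, against 54.9% of all genes, with a median of -0.24, and 0 passed 1.5-fold. With GHR loss 0 passed in either background, with medians of -0.16 in double-null against MDR2-null livers and 0.21 in GHR-null against wild-type livers. Limma called 0 of them for either loss, and at an unadjusted p under 0.05 stood 0 for GHR loss, against 13.1% of all genes, and 7 for MDR2 loss, against 23.6%.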

How the data were processed

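Each genotype was 1 array of RNA pooled from 3 livers, so p-values and differences describe these pools. The deposited values are intensity values on a linear scale, whole numbers from 6 to 22355. Per the submitters' processing notes the authors made them with RMA (background correction, quantile normalization, probe summary) in Affymetrix Expression Console 1.1. Their normalization was kept and log2 was taken; rounding makes low values coarse. Of 35556 rows, 21789 named 1 gene in GEO's platform annotation, 1621 several and 12146 none; 21698 were matched by gene ID to RefSeq (GRCm38.p6) and 0 symbols changed. A gene with several rows took the row with the highest mean. Median intensity was 105 in the double-null, 97 in the GHR-null, 102 in the MDR2-null and 94 in the wild-type pool, and Pearson's r between arrays was 0.968 to 0.988. The number of arrays limits the precision.

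A gene entered a comparison where the higher array reached 100. The test was limma 3.58.1 (R 4.3.3; 1 residual and 4.34 prior degrees of freedom), with Benjamini-Hochberg adjustment at 0.05 over 10764 genes. On simulated data with known changes its false calls ran above the nominal rate in most draws, so its calls are read with that limit. Intensities are given for members past 1.5-fold with either loss, members called by limma, regulators and entry enzymes, and further members were added after their values were seen. Other pathway genes are the 4 with the largest difference in each GHR comparison. Members, lists and rules were chosen with earlier results of these data known. Alternatives were no level filter, a level of 329, a 2-fold threshold, cyclic loess, centring on hepatocyte markers or on the median, averaging a gene's rows, 16 added before log2, and limma with trend and robust settings. Tables and figures were made with Python 3.11.15, pandas 2.3.3 and matplotlib 3.10.9.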

Additional observations from a re-analysis of the deposited data

Results flagged for a closer look

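The difference with GHR loss had opposite signs in the 2 backgrounds for Acot3 and Acot4. Both were higher in GHR-null than in wild-type livers, by 1.79 and 1.45 on the log2 scale, and the values were -0.33 and -0.11 in double-null against MDR2-null livers, which gives differences between backgrounds of -2.12 for Acot3 and -1.56 for Acot4. An opposite direction is not shown for either, since Acot3 was under the level in both of those pools and -0.11 is within the 0.23 robust SD of a single difference. The difference with MDR2 loss had opposite signs for Vnn1 and Aldh3a2. They were lower in double-null than in GHR-null livers, at -0.40 and -0.62, and higher in MDR2-null than in wild-type livers, at 0.65 and 0.11, which gives -1.05 for Vnn1 and -0.72 for Aldh3a2; the 0.11 of Aldh3a2 is within that SD too. None of these differences was tested, since each pool was 1 array. All 4 use the GHR-null pool, whose Xist signal goes against its label.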

How the results depend on the processing

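Counts of members past the threshold stayed within 1.5 times of the reported count under the alternatives run, except where named here. Within that range, the 12 members higher in GHR-null against wild-type livers became 10 after cyclic loess and 9 with median centring. Acadm, Ech1 and Decr2 did not pass 1.5-fold with median centring. At 2-fold in place of 1.5-fold, 2 members were higher in double-null against MDR2-null livers, 0 higher and 0 lower in MDR2-null against wild-type livers, 2 lower in double-null against GHR-null livers, and 3 higher and 0 lower in double-null against wild-type livers. Median centring of each array left 2 members higher in double-null against MDR2-null livers and turned that comparison's medians to -0.0338 for all members and -0.0495 for mitochondrial genes. Centring on hepatocyte markers turned the double-null against wild-type medians to 0.0462 for all members, 0.0513 for mitochondrial and 0.0644 for peroxisomal genes, with 0 members lower. Centring without Asgr1, added after seeing the data, left that all-member median at -0.07, with 1 member lower there and 1 lower in MDR2-null against wild-type livers. In MDR2-null against wild-type livers, 2 members were higher after cyclic loess or hepatocyte centring, and 1 was lower at a level of 329, after cyclic loess, after either centring or with 16 added. Without the level filter 5 members were lower in double-null against wild-type livers. Adding 16 gave -1.08 for the thioesterase median and -2.11 for Acot3 in double-null against GHR-null livers. Limma called 2 members higher with GHR loss under trend and robust settings and 0 without the level filter. The median over all genes shifted by -0.12 under median centring in GHR-null against wild-type livers, and under hepatocyte centring by 0.10 in double-null against MDR2-null, 0.15 in double-null against GHR-null and 0.19 in double-null against wild-type livers. The causes were not tested. In all, 72 of the counts stayed and 18 moved, and 144 medians stayed. No paired analysis was possible because each genotype was 1 array with no replicate number. Intensities under 100, as for Acot1, Fgf21 and most values of Acot3, were not shown to be above background.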

Other observations

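These genes of the other pathway list were chosen after their values were seen. Hacl1, which cuts branched fatty acids in peroxisomes, had an intensity of 406 in double-null and 1243 in MDR2-null livers, against 3077 in GHR-null and 2935 in wild-type livers, so it was low in both pools without MDR2. Scp2, which holds the peroxisomal thiolase for branched chains, was 1960 in double-null and 1884 in GHR-null livers, against 5112 in MDR2-null and 5793 in wild-type livers. Its average log2 difference with GHR loss was -1.50, with an SE of 0.15 and a limma adjusted p of 0.028, and it was lower in 2 of 2 comparisons. Klb, the co-receptor for FGF21, was 329 in double-null and 316 in MDR2-null livers, against 1059 in GHR-null and 610 in wild-type livers. Its average difference with MDR2 loss was -1.32, with an SE of 0.21 and a limma adjusted p of 0.042, and it was lower in 2 of 2 comparisons. Retsat, a retinol saturase, was 1009 in double-null and 975 in MDR2-null livers, against 2744 in GHR-null and 1760 in wild-type livers. Acot9, a mitochondrial thioesterase outside the member list, was 357 in double-null and 300 in MDR2-null livers, against 152 in GHR-null and 158 in wild-type livers, and limma called it higher with MDR2 loss. Pparg, the PPAR of fat storage, was 930 in double-null and 822 in GHR-null livers, against 491 in MDR2-null and 406 in wild-type livers, with log2 differences of 0.92 with GHR loss in double-null against MDR2-null livers and 1.02 in GHR-null against wild-type livers.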
